A study of Mus musculus with 4 samples.

Results

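The genes described here encode proteins that the liver secretes into plasma: carrier proteins, metal and haem binding proteins, fibrinogen chains, protease inhibitors, apolipoproteins and complement components. The list held 39 gene names and was chosen with earlier results of these data known. A gene was found by an exact match of its name in the array files, and it was read from its brightest probe, the one with the highest mean over all 4 arrays. Of the 39 names, 38 had a probe, out of 36918 gene names on the array. The name without a probe, C1s, is given by RefSeq as a synonym of C1s1, which is described beside its close copy C1s2 but not counted.

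The RNA came from mouse pancreatic cancer cells of the C57BL/6 strain, in 2 lines named K5 and K6, and the sources used here do not say how the lines differ. In each line 1 sample was exposed to halofuginone, at 100 nM for 24 hours, and 1 control sample received DMSO. The design compares the exposed cells with the control cells of the same line, and its text has K5F and K6F for what the titles call K5H and K6H, taken as one. No label states whether the samples were grown as separate cultures. The main fit pairs the arrays by line. The error behind each p-value is how far the 2 lines differ in their halofuginone change, pooled over genes. That difference may be technical or may lie between the lines, and the 2 cannot be told apart.

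In an adult, hepatocytes make most of these proteins at high levels, and many are acute phase proteins whose genes answer to interleukin-6, through STAT3, and to C/EBP factors. Factors of the HNF4 and FOXA families help to hold the liver programme in place, and they are also active in pancreatic and other foregut epithelia. Halofuginone inhibits prolyl-tRNA synthesis by the enzyme encoded by Eprs, and uncharged tRNA activates the amino acid response, a stress pathway that lowers the translation of most proteins.

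Each array held 59305 spots other than controls, none saturated, and the share well above background was 53.1% in halofuginone K5, 47.2% in control K5, 54.0% in halofuginone K6 and 48.6% in control K6. All 10 ductal epithelial markers listed (keratins, Epcam, Cdh1, Sox9 and others) were well above background on all 4 arrays. Of 15 hepatocyte enzymes and receptors outside the plasma protein list, 8 (Otc, Hpd, Arg1, G6pc, Pck1, Cyp2e1, Cyp7a1 and Uox) were well above background on no array, and 3 (Tat, Asgr2 and Slc10a1) were so on all 4. Of the listed markers of other cells, 4 of 12 acinar, 7 of 9 macrophage, 4 of 8 fibroblast and 1 of 6 islet genes with a probe were read on 2 arrays or more. Of the markers read on 2 arrays or more, 1 of 5 hepatocyte (Asgr1) and 2 of 10 ductal (Muc1 and Tspan8) were lower after halofuginone. So were 1 of 4 acinar (Cela1), 2 of 7 macrophage (Cd68 and Cd14) and 1 of 4 fibroblast markers (Fbln1). Over all tested genes 5.08% were lower and 3.88% higher by the same test. None of the markers was higher, which is near the 3.88%. In each of the groups just named the share lower was above 5.08%, on 1 or 2 genes a group, while the 1 islet marker did not pass. The part of the markers in the results below was not tested. In bulk RNA, fewer cells of a type and less RNA per cell cannot be told apart.

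The first question is which of the genes the control cells expressed. Both control arrays read 25 of the 38 genes (65.8%) well above background, against 44.5% of all gene names on the array. Another 4 were read on 1 control array only: Alb and Serpind1 in K6 control, Apoc1 in K6 control and Apoa1 in K5 control. The remaining 9 were read on neither. Of these, 6 were read on no array at all: Ahsg (fetuin-A), Apoa4, Serping1 (the inhibitor of complement C1), the fibrinogen chains Fga and Fgg, and Vtn (vitronectin). After halofuginone, both arrays read 22 genes, 7 were read on 1 array and 9 on neither. Among the 25 genes read on both control arrays, 5 were not well above background on at least 1 halofuginone array (20%), against 549 of 16444 of all gene names (3.34%).

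**Figure D1:**
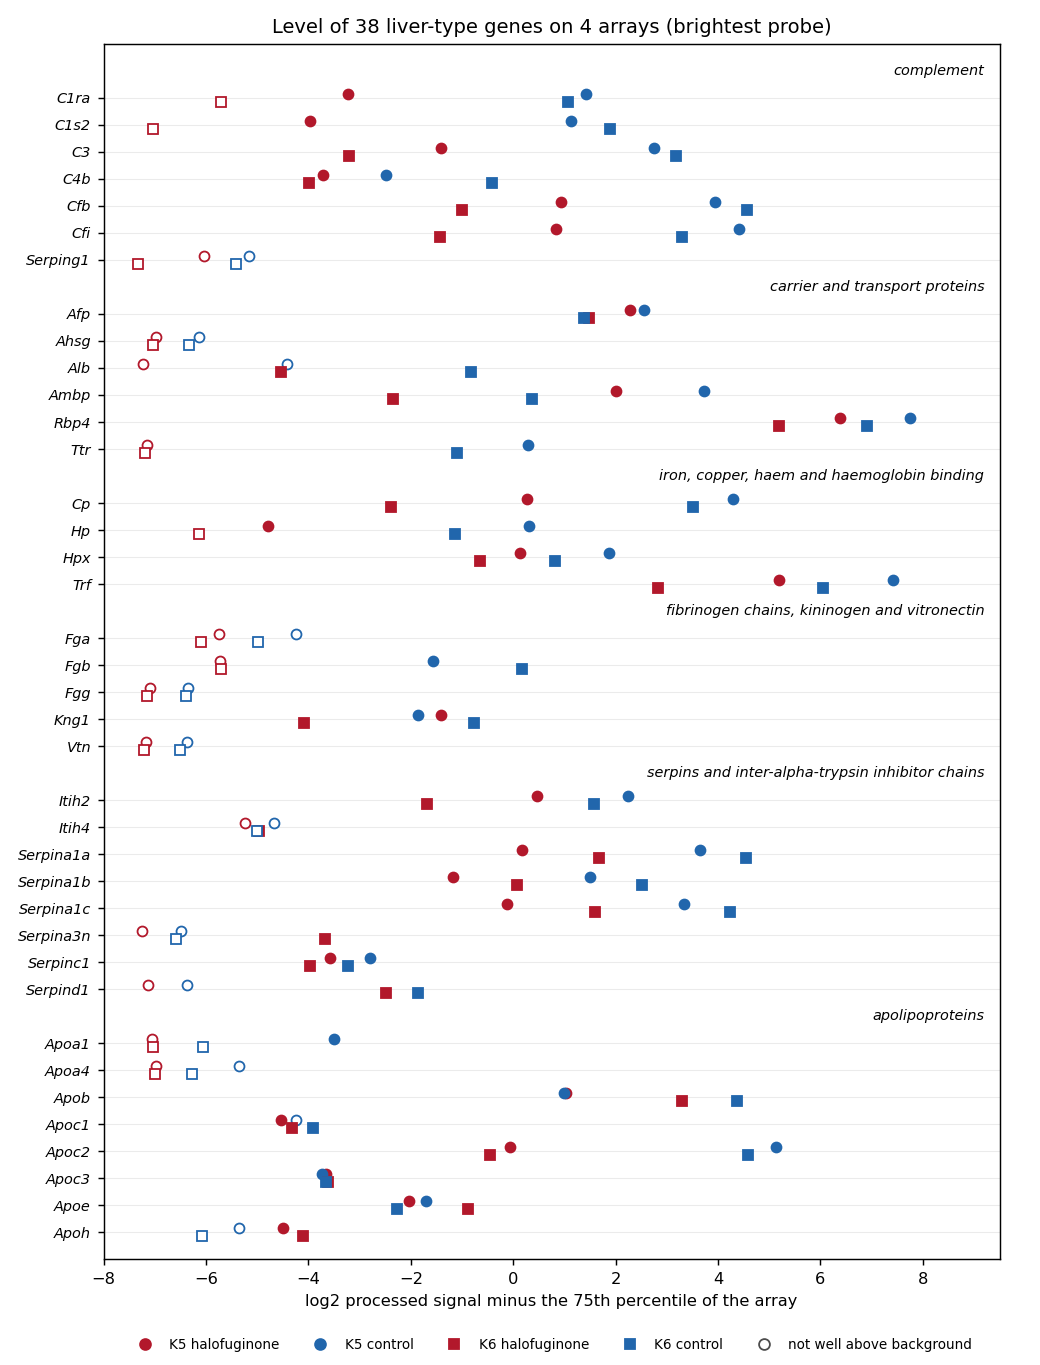
Levels of the 38 genes, grouped by role, on each array, as log2 processed signal minus the 75th percentile of the array (horizontal axis). Red marks halofuginone, blue control, circles K5, squares K6, and open symbols are not well above background. In the complement and metal binding groups the red symbols lie left of the blue ones in both lines. For Serping1, at the dim end, all 4 symbols are open, so its change could not be read.

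Values below are log2 levels relative to the 75th percentile of the array, so 0 is that percentile, and only levels of the same probe are set against each other. A change is the halofuginone level minus the control level. Within a line it rests on 1 array against 1 and has no test. Over both lines it comes from limma with its standard error (SE), n = 2 arrays per group, and it passed where the adjusted p was under 0.05. Where a probe was not well above background in a group, the fold is a lower bound, written "at least". It sets the mean of the brighter group against, for each dim array, the higher of the dim probe's own level and the lowest level well above background, and p beside a bound comes from the values as read. The lowest level well above background was -4.92 and -5.01 on the halofuginone arrays of K5 and K6, against -4.17 and -4.25 on the control arrays, so a gene could be read at a lower level after halofuginone.

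Testing required a probe well above background on 2 arrays or more, which held for 29 of the 38 genes, called measured below, and for 19093 of all gene names. Of the 29, 6 (Ttr, Hp, Apoc2, C1s2, Kng1 and Serpind1) were named in earlier results of these data and are given as values without a test. Of the other 23, 13 passed as lower after halofuginone (5.08% of all tested genes did) and 0 as higher (3.88%), while 10 did not pass. With the 6 counted in, 17 of 29 were lower. Ttr and Fgb were measured only through the control arrays and Apoh only through the halofuginone arrays, so these had to differ. Of the 23, 18 were read on all 4 arrays, and 10 of these passed as lower. Both halofuginone arrays lay below both control arrays for 17 of the 23, against 28.6% of all tested genes.

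The change was in the same direction in both lines for most of the genes. By the brightest probe as read, it was negative in both lines for 23 of the 29 and positive in both for 2 (Apoc3 and Apoh). In 4 the signs were opposite (Apob, Apoe, Afp and Kng1). These counts include the 6 genes named earlier, and no share over all tested genes is set beside them. They thus describe the genes and are not a result about the list. They also include Ttr, Fgb and Apoh, which had to differ. For Alb and Serpind1 neither K5 array was well above background. Serpind1 was -0.76 in K5 as read, and Fgg, read on no array, was -0.75 in both lines. Without the 6 genes named earlier, the median change as read was -1.78 for K5 and -2.71 for K6, against -0.03 and 0.04 over all tested genes. Counting changes as read with the brighter array well above background, 15 of these 23 genes were 2-fold lower or more in K5 (14.9% of all tested genes) and 0 were 2-fold higher (14.1%). In K6, 17 were 2-fold lower as read (16.4%) and 2, Apoe and Apoh, 2-fold higher (16.4%), although the bound for Apoh in K6 is at least 1.103-fold. In both lines 15 were 2-fold lower as read (9.62%), and 0 were 2-fold higher in both (8.59%).

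These counts hold for the fit with the line as a block. Limma passed 0 of the 29 without the block, 0 with signals raised to a common floor, 0 with another scaling chosen after seeing the data, and 0 of 38 without the filter, although 18, 19, 22 and 23 of them were lower at an unadjusted p under 0.05. That was 62.1%, 65.5%, 75.9% and 60.5% of the genes, against 11.6%, 15.5%, 19.9% and 31.5% of all genes tested in the same settings. The 29 and the 38 include the 6 genes named earlier, and the 29 include Ttr, Fgb and Apoh, which had to differ. The shares are thus a description and no support for the list. Under each of these settings no gene of the whole array passed.

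**Figure D2:**
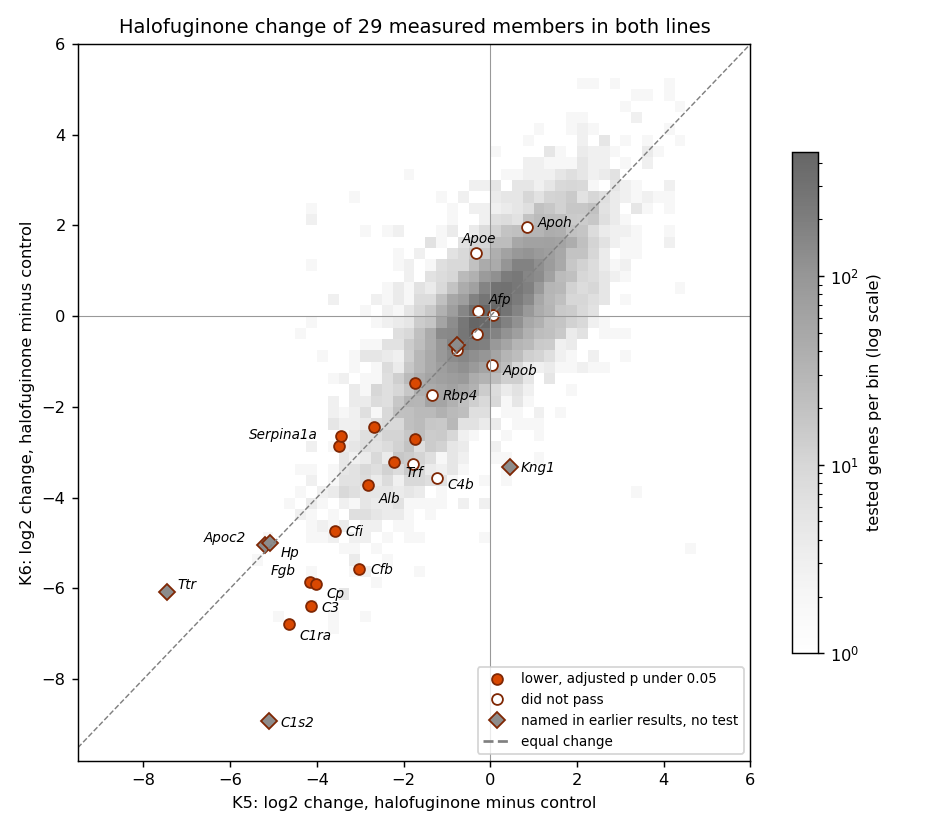
Log2 change, halofuginone minus control, in K5 (horizontal axis) and K6 (vertical axis) for the 29 measured genes, with orange circles where the test passed as lower, open circles where it did not and grey diamonds for the 6 genes named earlier, over a grey count of all 19093 tested genes. The orange genes lie in the lower left. C1s2 lies at -5.09 and, as read, -8.93 (its K6 halofuginone array was not well above background, at least 119-fold lower), and Kng1 stands apart at 0.46 in K5 and -3.32 in K6.

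Most of the complement genes fell, with 4 of 5 measured members other than C1s2 lower. The complement cascade marks cells and particles for removal: C1r and C1s are the proteases of the first component, C4 and C3 are the proteins they lead to, factor B (Cfb) forms the alternative pathway protease and factor I (Cfi) cuts C3b and C4b. The level of C3, the central component (probe at chr17:57343416-57343475, mm9), was -1.41 in halofuginone K5 and -3.20 in halofuginone K6, against 2.74 in control K5 and 3.19 in control K6. Both halofuginone arrays lay far below both control arrays, and the change was -5.27 (SE 0.62, 38.5-fold lower, adjusted p 0.0390). Cfb read 0.93 and -1.0 in halofuginone K5 and K6, against 3.95 and 4.56 in the controls, a change of -4.29 (SE 0.69, adjusted p 0.0476). Its drop was 8.11-fold in K5 and 47.4-fold in K6.

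Cfi was likewise read on all arrays, at 0.83 in halofuginone K5 and -1.43 in halofuginone K6, against 4.41 in control K5 and 3.30 in control K6 (change -4.16, SE 0.39, adjusted p 0.0359). C4b was the measured complement gene that did not pass, with a change of -2.40 (SE 0.64, adjusted p 0.0914). It was -3.71 in halofuginone K5 and -4.00 in halofuginone K6, against -2.48 and -0.42 in the controls, so the 2 control arrays were farther apart than the halofuginone arrays.

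The C1 protease genes lie together on chromosome 6 in the probe coordinates. C1ra (chr6:124473052-124473111) read -3.22 in halofuginone K5 against 1.43 in control K5. In K6 the halofuginone array was not well above background, against 1.06 in control, which gives at least 67.2-fold lower (change over both lines -5.71, SE 0.59, adjusted p 0.0375). C1s2 (chr6:124574742-124574801) read -3.96 in halofuginone K5 against 1.13 in control K5, a 34.1-fold drop. Its K6 halofuginone array was again not well above background, against 1.89 in control K6, at least 119-fold lower. C1s1 (chr6:124480775-124480834), the gene that carried the listed name C1s, changed by -4.77 in K5 and was at least 125-fold lower in K6. The C1s1 and C1s2 probes are distinct, with a longest shared run of 7 of 60 bases. The 250 bases before the annotated start of C1s2 are shown because the gene had the largest change of the list as read, with matches to the motif GTTAAT, on either strand, in capitals (RefSeq, GRCm38.p6, chr6:124636086-124636335, minus strand):
C1s2: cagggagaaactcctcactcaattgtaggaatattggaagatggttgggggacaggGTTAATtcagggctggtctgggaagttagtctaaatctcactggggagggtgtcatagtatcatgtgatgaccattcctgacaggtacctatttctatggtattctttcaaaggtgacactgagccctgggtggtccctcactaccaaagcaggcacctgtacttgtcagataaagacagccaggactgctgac

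Of the metal, haem and haemoglobin binding genes, all 3 other than Hp passed as lower. The group holds transferrin (Trf), which carries iron, ceruloplasmin (Cp), a copper-containing oxidase of iron, hemopexin (Hpx), which binds free haem, and haptoglobin (Hp), which binds free haemoglobin. Cp read 0.28 in halofuginone K5 and -2.39 in halofuginone K6, against 4.30 in control K5 and 3.50 in control K6 (change -4.96, SE 0.54, 31.1-fold lower, adjusted p 0.0377). All 5 of its passing probes were lower, by -4.96 to -1.61. Trf, at 5.19 and 2.83 in halofuginone K5 and K6 against 7.41 and 6.04 in the controls, changed by -2.72 (SE 0.36, adjusted p 0.0423), and its second probe gave -2.80.

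Hpx had the smallest change among the genes that passed, -1.61 (SE 0.26, adjusted p 0.0483). It read 0.13 and -0.66 in halofuginone K5 and K6, against 1.88 and 0.81 in the controls, and the groups did not overlap. Hp read -4.78 in halofuginone K5 against 0.30 in control K5, a 34.0-fold drop. In K6 the halofuginone array was not well above background against -1.14 in control, at least 14.6-fold lower.

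Carrier proteins were mixed, with 2 of 4 measured members other than Ttr lower. Transthyretin (Ttr), the carrier of thyroid hormone and of retinol binding protein, was well above background in the control cells only, at 0.30 in K5 and -1.11 in K6. In halofuginone cells it was at least 37.3-fold lower in K5 and at least 15.0-fold lower in K6. A second Ttr probe was read on no array, so the drop rests on 1 probe. Retinol binding protein (Rbp4) itself changed by -1.54 (SE 0.27, adjusted p 0.0516) and did not pass. It was 6.39 and 5.19 in halofuginone K5 and K6, against 7.74 and 6.91 in the controls.

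Albumin (Alb, chr5:90905550-90905609) was read in K6, at -4.53 in halofuginone and -0.82 in control cells, a 13.1-fold drop. Neither K5 array was well above background for it, so K5 gives no fold, and the change over both lines as read was -3.26 (SE 0.34, adjusted p 0.0375). A second Alb probe was at least 6.94-fold lower in K6. In K5 it was -0.91 as read, against -2.81 from the brightest probe, again with neither array well above background. The pass of Alb thus rests in part on K5 values that could not be read. Ambp, the precursor of alpha-1-microglobulin and bikunin, was 2.01 in halofuginone K5 and -2.35 in halofuginone K6, against 3.73 and 0.36 in the controls (change -2.22, SE 0.35, adjusted p 0.0473). Its K6 arrays lay below the K5 arrays of the same treatment by more than halofuginone lowered it. Alpha-fetoprotein (Afp, chr5:90937781-90937840), the fetal counterpart of albumin and its neighbour in the genome, read 2.28 and 1.49 in halofuginone K5 and K6, against 2.56 and 1.38 in the controls. Its change of -0.08 (SE 0.27, adjusted p 0.850) was within the spread. Ahsg was read on no array.

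The regions before both genes are shown as a neighbouring pair of which 1 passed as lower and 1 did not. Each is the 250 bases before the annotated start, with matches to GTTAAT on either strand in capitals (RefSeq, GRCm38.p6, chr5:90460620-90460869, plus strand and chr5:90490464-90490713, plus strand):
Alb: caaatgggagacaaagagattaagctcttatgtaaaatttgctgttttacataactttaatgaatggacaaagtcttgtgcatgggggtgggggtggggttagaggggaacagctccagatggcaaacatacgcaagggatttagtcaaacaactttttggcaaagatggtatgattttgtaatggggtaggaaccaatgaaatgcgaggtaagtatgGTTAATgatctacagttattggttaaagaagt
Afp: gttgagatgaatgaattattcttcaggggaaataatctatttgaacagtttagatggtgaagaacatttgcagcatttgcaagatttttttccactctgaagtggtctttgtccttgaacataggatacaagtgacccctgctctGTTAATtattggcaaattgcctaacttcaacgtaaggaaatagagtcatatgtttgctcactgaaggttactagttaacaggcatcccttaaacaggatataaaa
Both hold 1 match, from 32 to 27 bases before the annotated start in Alb and from 105 to 100 in Afp.

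Of the fibrinogen chains, the control cells expressed 1. Fibrinogen is built from the products of Fga, Fgb and Fgg, neighbours on chromosome 3, and is the precursor of the clot. Fgb (chr3:82846334-82846393) was well above background in both control lines, at -1.57 in K5 and 0.16 in K6, and in neither halofuginone line. It was thus measured through the control arrays alone, and was at least 10.2-fold lower in K5 and at least 36.1-fold lower in K6 (at least 19.2-fold over both lines, change as read -5.01, SE 0.50, adjusted p 0.0366). Both Fga probes and the Fgg probe were dim on all 4 arrays, so nothing can be said of their change. The regions before the 3 starts are shown in the same way, as a cluster of which 1 gene was read (chr3:83025903-83026152, plus strand, chr3:83049864-83050113, minus strand and chr3:83007474-83007723, plus strand):
Fga: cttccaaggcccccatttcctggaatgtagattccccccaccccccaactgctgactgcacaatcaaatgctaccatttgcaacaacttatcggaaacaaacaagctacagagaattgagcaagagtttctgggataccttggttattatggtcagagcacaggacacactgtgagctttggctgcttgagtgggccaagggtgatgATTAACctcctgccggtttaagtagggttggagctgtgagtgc
Fgb: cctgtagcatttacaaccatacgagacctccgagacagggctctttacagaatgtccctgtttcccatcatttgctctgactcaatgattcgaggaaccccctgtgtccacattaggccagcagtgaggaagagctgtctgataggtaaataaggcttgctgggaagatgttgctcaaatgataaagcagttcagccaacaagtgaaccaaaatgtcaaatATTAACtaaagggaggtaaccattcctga
Fgg: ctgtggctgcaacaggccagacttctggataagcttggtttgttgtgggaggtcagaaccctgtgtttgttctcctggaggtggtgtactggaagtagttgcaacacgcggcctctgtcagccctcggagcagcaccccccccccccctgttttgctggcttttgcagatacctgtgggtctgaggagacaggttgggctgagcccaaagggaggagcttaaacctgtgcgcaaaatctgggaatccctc
A match was found before Fga and before Fgb, and these letters were not found before Fgg.

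Kininogen (Kng1), the precursor of bradykinin, went opposite ways in the 2 lines. It read -1.41 in halofuginone K5 and -4.08 in halofuginone K6, against -1.86 in control K5 and -0.76 in control K6, changes of 0.46 and -3.32. A second probe, which in K5 was not well above background on either array, was at least 2.52-fold lower in K6. Vtn was read on no array.

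Among the protease inhibitors other than Serpind1, 3 of 5 measured genes were lower, all of them copies of alpha-1-antitrypsin. Serpina1a read 0.16 in halofuginone K5 and 1.68 in halofuginone K6, against 3.64 in control K5 and 4.54 in control K6 (change -3.17, SE 0.30, adjusted p 0.0359). Serpina1b changed by -2.57 (SE 0.26, adjusted p 0.0373) and Serpina1c by -3.05 (SE 0.33, adjusted p 0.0375). In all 3 the drop was larger in K5 than in K6. Serpina1d and Serpina1e, which are not on the list, changed by -2.71 and -3.08.

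These copies are not independent readings. The brightest probes of Serpina1a and Serpina1c share a run of 47 of their 60 bases, and that of Serpina1e shares 29 with each, so the value of a single copy is uncertain. A second Serpina1a probe and the Serpina1b probe, shown because they read different copies, share the 26 bases in capitals (probe sequences from the files, mm9, chr12:105091979-105092038, minus strand and chr12:104966520-104966579, minus strand):
Serpina1a probe: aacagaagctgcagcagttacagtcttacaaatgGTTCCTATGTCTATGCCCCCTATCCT
Serpina1b probe: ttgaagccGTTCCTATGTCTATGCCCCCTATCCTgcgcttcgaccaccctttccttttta
That Serpina1a probe changed by -3.41 in K5 and -2.83 in K6, close to the brightest one. The 250 bases before the annotated start of Serpina1a, shown for the family (RefSeq, GRCm38.p6, chr12:103863620-103863869, minus strand), hold a match 21 to 16 bases before it:
Serpina1a: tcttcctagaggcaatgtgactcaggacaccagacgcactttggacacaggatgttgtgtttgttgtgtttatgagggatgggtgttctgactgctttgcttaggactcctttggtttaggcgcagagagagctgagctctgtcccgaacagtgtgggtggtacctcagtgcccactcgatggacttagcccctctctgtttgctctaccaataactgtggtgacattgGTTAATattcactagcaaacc

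Itih2 and Serpinc1 did not pass. Itih2, a heavy chain of the inter-alpha-trypsin inhibitor, which joins the bikunin encoded by Ambp, read 0.46 in halofuginone K5 and -1.68 in halofuginone K6, against 2.24 and 1.57 in the controls. Its change of -2.52 (SE 0.45, adjusted p 0.0524) lay just outside the threshold. Antithrombin (Serpinc1) changed by -0.75 (SE 0.26, adjusted p 0.133), and a second probe, read on the halofuginone arrays only, was at least 1.21-fold higher. Heparin cofactor II (Serpind1) was read in K6 only, at -2.49 in halofuginone and -1.85 in control cells. Itih4 and Serpina3n, an antichymotrypsin-like acute phase gene, were each read on the K6 halofuginone array alone, at -4.96 and -3.68.

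Of the 5 measured apolipoprotein genes other than Apoc2, limma passed 0 in either direction (1, Apoh, at an unadjusted p under 0.05). Apoc2 (chr7:20257027-20257086), the activator of lipoprotein lipase, read -0.06 in halofuginone K5 and -0.46 in halofuginone K6, against 5.13 in control K5 and 4.59 in control K6. The drop was 36.4-fold in K5 and 33.2-fold in K6, and a second probe gave 35.2-fold and 34.7-fold. The 250 bases before its start are shown because its drop was far larger than that of the other apolipoproteins read on all arrays (RefSeq, GRCm38.p6, chr7:19677942-19678191, minus strand):
Apoc2: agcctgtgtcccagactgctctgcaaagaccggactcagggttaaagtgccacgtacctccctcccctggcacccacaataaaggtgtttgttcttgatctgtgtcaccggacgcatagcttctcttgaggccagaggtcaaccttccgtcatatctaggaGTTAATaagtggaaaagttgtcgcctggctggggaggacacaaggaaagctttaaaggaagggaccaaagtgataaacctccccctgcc
They hold 1 match, 89 to 84 bases before the start.

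Apoe and Apoc1 lie beside Apoc2 on chromosome 7 and did not pass. Apoe, a ligand of lipoprotein receptors, read -2.03 in halofuginone K5 and -0.88 in halofuginone K6, against -1.70 and -2.26 in the controls (change 0.53, SE 0.50, adjusted p 0.501), a change of -0.33 in K5 and a 2.61-fold higher level in K6. A second Apoe probe gave 0.06 in K5 and 1.14 in K6, where its control array was not well above background. Apoc1 changed by -0.36 (SE 0.26, adjusted p 0.386), near the lower end of what the arrays could read. Apob, the structural protein of low-density lipoprotein, was 1.02 in halofuginone K5 and 3.30 in halofuginone K6, against 0.99 and 4.37 in the controls. Its change was -0.52 (SE 0.38, adjusted p 0.389), with a change of 0.03 in K5 and a 2.09-fold drop in K6.

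Apoc3, an inhibitor of lipoprotein lipase, stayed between -3.73 and -3.61 on all 4 arrays (change 0.05, SE 0.26, adjusted p 0.898), and its other 2 probes were read on no array. Its sign turned to negative under 3 alternative settings. Apoh (beta-2-glycoprotein I) was read on the halofuginone arrays only, at -4.50 in K5 and -4.11 in K6. It was at least 1.103-fold higher in halofuginone K6, with no bound over 1 in K5 (change as read 1.41, SE 0.38, adjusted p 0.0927). Apoa1, the main protein of high-density lipoprotein, was read on the K5 control array alone, at -3.49, at least 2.70-fold higher there than in halofuginone K5. Apoa4 was read on no array.

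**Figure D3:**
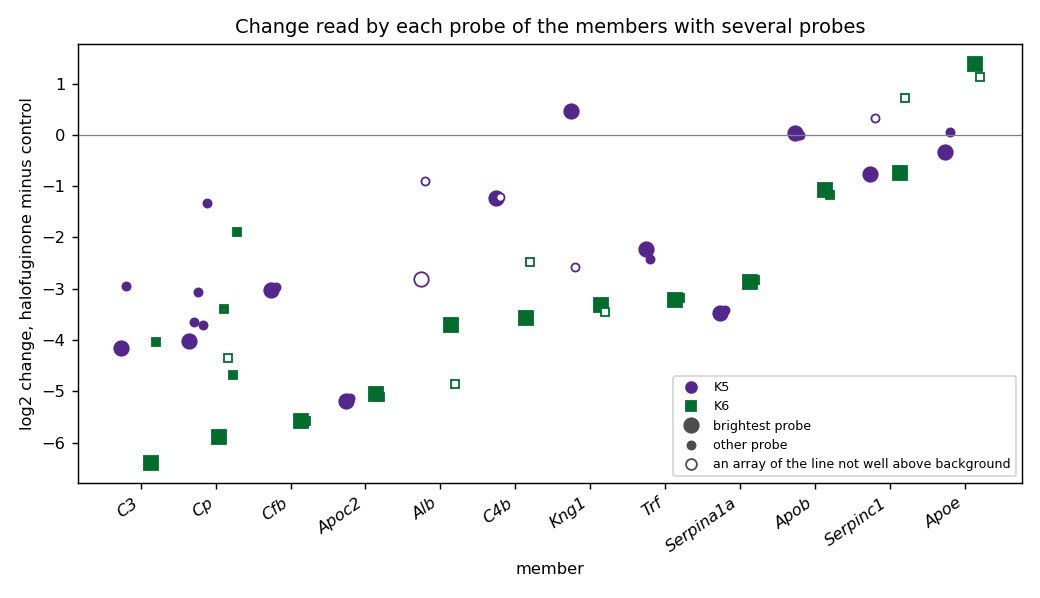
Log2 change, halofuginone minus control, of each probe read on at least 1 array, for the genes of the list with more than 1 such probe (purple circles K5, green squares K6, large symbols the brightest probe, open symbols where an array of the line was not well above background). Probes of Apoc2, Trf, Cfb and Serpina1a lie almost on each other, those of C3 and Cp spread but are all below 0, and Serpinc1 has probes on both sides of 0.

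Probes of the same gene mostly read the same direction. Of the 9 measured genes with more than 1 probe read on 2 arrays or more, 8 had probes of 1 sign over both lines, the exception being Serpinc1. A dimmer Kng1 probe left out by this filter was -2.57 in K5 as read, against 0.46 from the brightest probe, but neither K5 array was well above background for it. The size differed more than the sign: the 2 probes of C3 gave -5.27 and -3.49.

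Promoter windows of the list were searched for 4 motifs on both strands, from 250 bases before to 50 after the annotated start, and 28 of the 39 names had a window in the RefSeq table. The motif GTTAAT was found in 7 of 10 genes that passed as lower (70%), 2 of the 3 with a window among those named earlier (Apoc2 and C1s2) and 4 of 15 other genes of the list (26.7%), against 7.1% of 32851 promoters, or 8.24% of 27025 genes with at least 1 window. A C/EBP motif (TTGCNNAA) was found in 8 of the 10, 0 of the 3 and 7 of the 15 (10.8% of promoters). An HNF4 motif (CAAAGNNCA) was found in 1 of the 10, Hpx, 1 of the 3, Serpind1, and 6 of the 15 (6.36%), and a STAT motif (TTCNNNGAA) in 2 of the 10, 0 of the 3 and 3 of the 15 (8.3%). The motifs can overlap in a window, and some of the matched genes are copies of each other (Serpina1a, Serpina1b and Serpina1c). A match describes letters in a window and shows no binding, and the shares were not tested.

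For Serpind1, Apob and Ambp the difference between the lines was larger than the halofuginone change. Of the 23 genes not named earlier, limma passed 0 between K6 and K5 (0.173% of all tested genes passed), and 13 had an unadjusted p under 0.05 (56.5%, against 15.5% of all tested genes). Serpind1, which was measured only through the K6 arrays, was at least 5.18-fold higher there. Apob was 2.82 higher in K6 than in K5 over both treatments (SE 0.38, adjusted p 0.0904), and Ambp was -3.87 in K6 relative to K5 (SE 0.35, adjusted p 0.0570). Neither passed. Alb was at least 3.66-fold higher in K6 (adjusted p 0.0690). With 1 array per line and treatment, whether the halofuginone change itself differed between lines could not be tested.

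**Figure D4:**
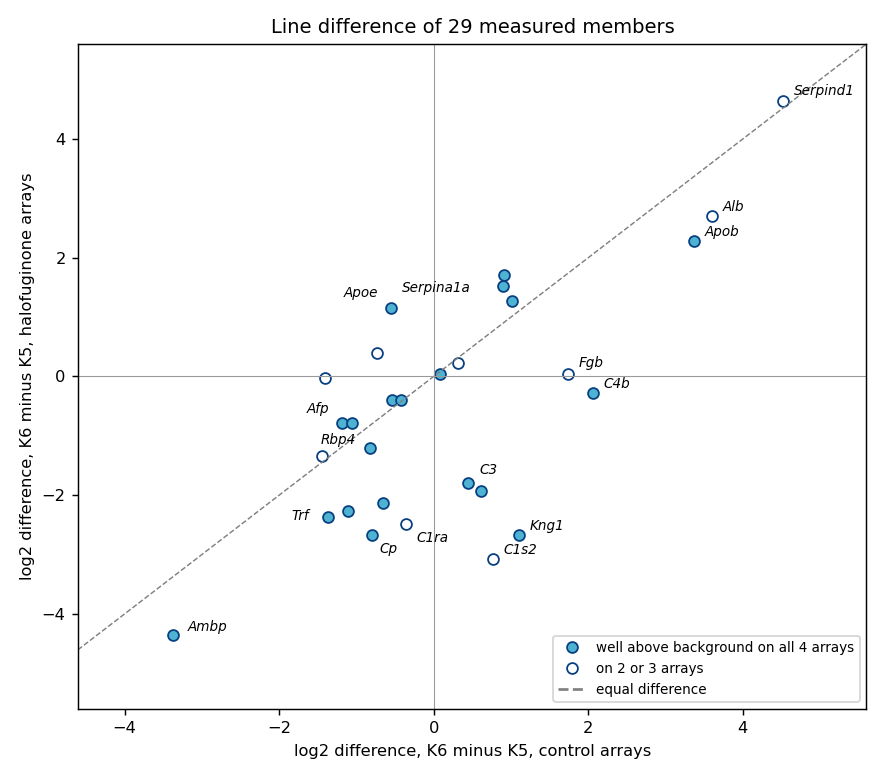
Log2 difference between lines, K6 minus K5, in control arrays (horizontal axis) and halofuginone arrays (vertical axis) for the 29 measured genes, filled where all 4 arrays were well above background. Serpind1, Alb and Apob lie at the upper right and Ambp at the lower left in both treatments. C1s2, C1ra, C3 and Kng1 lie below the dashed line of equal difference, which marks a more negative change in K6 than in K5.

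Genes of the same pathways that are not on the list were read from lists also chosen with earlier results known. Of other liver plasma carriers and serpins, 10 of 16 measured genes were lower and 0 higher (5.08% and 3.88% of all tested genes), 2 of the 10 measured only through the control arrays. These are Serpina7 and Azgp1, which thus had to differ. The 10 also include Serpina1d and Serpina1e, the further copies of alpha-1-antitrypsin described above, which are not independent of the listed copies. Serpina7, the thyroxine binding globulin, was at least 4.79-fold lower and the zinc-alpha-2-glycoprotein Azgp1 at least 6.09-fold lower. Serpinb1a changed by -4.24 and the vitamin E binding afamin (Afm), a neighbour of Alb and Afp, by -4.21. Of other complement genes, 4 of 14 were lower and 0 higher, among them C4bp, which binds C4b and limits its activity (change -2.58, SE 0.26, adjusted p 0.0366), and C8g (-2.82). Of other acute phase proteins, 1 of 8 passed, Lbp, the lipopolysaccharide binding protein, at -4.42 (SE 0.31, adjusted p 0.0359).

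Coagulation and fibrinolysis genes had 3 lower and 1 higher of 14: F5, also measured only through the control arrays, was at least 5.78-fold lower, Pros1 changed by -3.0 and Proc by -2.64, while Thbd, the thrombin receptor thrombomodulin, rose by 2.01 (SE 0.26, adjusted p 0.0423). Of 21 measured genes of lipoprotein assembly and uptake, 2 were lower (Lrp1 at -2.17 and Apobec1 at -1.63) and 1 higher, Mttp, which loads lipid onto the Apob protein, at 2.19 (SE 0.29, adjusted p 0.0423). Over all tested genes 5.08% passed as lower and 3.88% as higher. Counts of 2 and 1 in 21 are near that background and are not a result about this list.

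**Figure D5:**
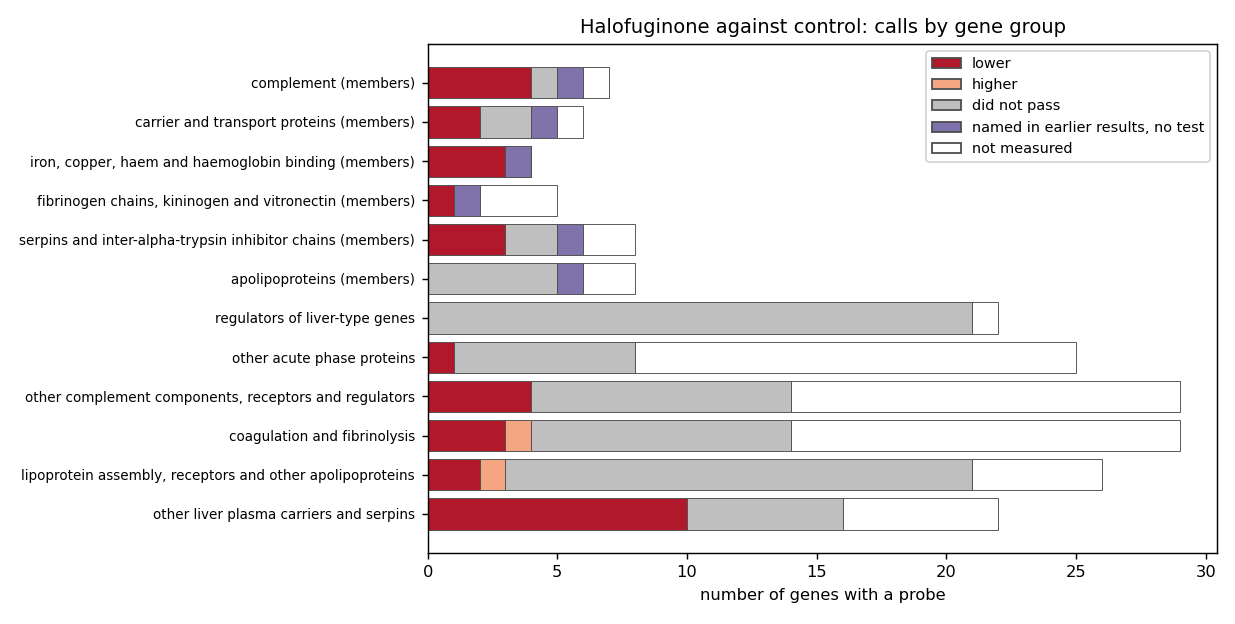
Number of genes with a probe (horizontal axis) in each role of the list (upper 6 bars) and in the 6 further gene lists (lower bars), split by the test of halofuginone against control into lower, higher, not passed and not measured, with the 6 genes named earlier set apart in purple. Lower genes make up 4 of 5 tested complement genes, 3 of 3 metal binding genes and 10 of 16 other carriers and serpins. The last include Serpina1d and Serpina1e, copies of listed genes.

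Transcription factors and receptors known to act on liver genes were mostly expressed: 21 of 22 were measured. Limma passed 0 of them in either direction, and 5 had an unadjusted p under 0.05 (23.8%, against 34.1% of all tested genes). With 5.08% lower and 3.88% higher over all tested genes, a count of 0 in 21 is near the background and is not a result about these regulators. The 4 with the largest negative changes were Creb3l3 (-2.35, SE 0.43, adjusted p 0.0536), Hnf4a (-1.35, SE 0.26, adjusted p 0.0572), Foxa2 (-0.96, adjusted p 0.0984) and Stat3 (-0.93, adjusted p 0.0964). The positive side was led by Cebpb (1.62, SE 0.38, adjusted p 0.0765), Il6ra (1.09), Nfkb1 (0.64) and Cebpa (0.56). Hnf4a read 4.33 and 3.99 in halofuginone K5 and K6, against 5.58 and 5.43 in the controls, without overlap.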

How the data were processed

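Per the labels' protocols, RNA of 4 samples was amplified to Cy3-labelled cRNA for 1-colour Agilent arrays. Per the file headers, Agilent Feature Extraction 10.7.1.1 gave the spot intensity, but version 9.5.1.1 stands in the submitters' processing notes. The deposited intensity used is the processed signal, background-subtracted and detrended within each array. The authors' deposited table of intensity, whose columns share a median of 32.97434, served as an alternative, and no source used here says how it was made.

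Spots of a probe were averaged after removing controls and outliers, which lost 301 of 56605 probes. Values are log2 intensity minus the 75th percentile of the array, computed from the deposited signal. Halofuginone minus control was fitted over all tested genes with limma 3.58.1 in R 4.3.3, with the line as a block, 1 residual and 2.97 prior degrees of freedom, and Benjamini-Hochberg adjustment at 0.05. K6 minus K5 came from the same fit. The code was also run on simulated arrays, but with a far smaller share of changed genes than here. That run therefore does not bear on the counts above. The labels' numbers 5 and 6 name the cells and so pair the samples; over all tested genes, K6 minus K5 correlated at 0.498 between halofuginone and control. A permutation test of 2 against 2 arrays cannot go below p = 0.333, so none was used.

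The genes, lists and motifs were chosen with earlier results of these data known. Every listed gene with a probe is accounted for. Genes of other lists are named if they passed, or if they are measured regulators, up to the 4 largest changes in each direction. C1s1, Serpina1d and Serpina1e are named as copies, and marker genes with their lists. Some genes are not reported here. Probe coordinates are mm9 from the files. Promoters are from RefSeq (GRCm38.p6), and coordinates of the 2 builds are not compared. Alternatives were quantile normalization, normexp with an offset of 50, no filter, a filter on all 4 arrays, the mean over probes, the authors' values, a common floor, no block, an intensity trend, leaving out a line and, added later, another scaling. The number of arrays limits the precision.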

Additional observations from a re-analysis of the deposited data

Results flagged for a closer look

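In 4 genes the sign of the change as read from the brightest probe differed between the lines. Taking the K5 change from the K6 change left -3.78 for Kng1, -1.10 for Apob, 1.71 for Apoe and 0.39 for Afp on the log2 scale. With 1 array per line and treatment these differences were not tested. For Afp the changes were small, -0.28 in K5 and 0.11 in K6. Apob hardly changed in K5, at 0.03 from the brightest probe and 0.003 from a second one. A second Apoe probe was positive in both lines, at 0.06 in K5 and 1.14 in K6, so the opposite signs of Apoe rest on 1 probe. A second Kng1 probe was lower in both lines as read, at -2.57 in K5, where neither array was well above background, and -3.46 in K6.

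Serpina3n was left out of the test because a single array read it well above background. Its level was -3.68 in halofuginone K6, against -6.58 in control K6, which was not well above background, at least 1.48-fold higher.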

How the results depend on the processing

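Of the 29 measured genes, 17 passed as lower with the line as a block, against 970 of all 19093 tested genes. The 29 include the 6 genes named earlier, whose p-values are no support, and Ttr, Fgb and Apoh, which had to differ. Without those 6 genes, 13 of 23 passed in this fit. Counts under the other settings were not made without them and describe the processing only. Limma passed 18 with quantile normalization and 18 with the authors' deposited values (1025 and 1033 of all). With normexp and with an intensity trend 20 passed, but so did 2592 and 2161 of all. With the filter on all 4 arrays 14 of 20 passed, against 2103 of 15895. Limma passed 12 with the mean over probes (368 of all 19093). It passed 0 with no filter (23 lower at an unadjusted p under 0.05, 60.5% against 31.5% of all genes), 0 with a common floor (19, 65.5% against 15.5%), 0 with no replicate block (18, 62.1% against 11.6%) and 0 with the 75th percentile taken over probes detected on all 4 arrays (22, 75.9% against 19.9%), a setting chosen after seeing the data. Over the whole array these 4 settings also passed 0 genes, so the list's calls were lost together with all others, and the cause was not tested. The count higher was 0 in every setting run. Between K6 and K5, 1 gene passed in the main fit (33 of all 19093 tested genes). That gene is Serpind1, named earlier and measured only through the K6 arrays, so it had to differ and its pass is no support. The count was 2 with quantile normalization and with the authors' values, where 149 and 152 of all passed. It was 11 with normexp (1232 of all), 3 with the filter on all 4 arrays (305 of 15895) and 4 with an intensity trend (293). It was 0 with no filter (13 unadjusted, against 9.9% of all genes), the mean over probes (14, 14.3%), a common floor (11, 13.1%), no replicate block (3, 4.18%) and the added scaling (15, 14.8%), and the cause was not tested. The median change in K6 was -2.50 with normexp and -2.18 with no filter. Leaving out 1 line at a time, the median over both lines was -3.22 without K5 and -2.22 without K6. The change of Apoc3 turned to -0.033 with normexp, -0.47 with the mean over probes and -0.07 with the added scaling. Itih2 passed in 5 settings and Rbp4 and C4b in 3 each. With the mean over probes Alb, Ambp, Cfb and Hpx no longer passed with limma, with adjusted p from 0.056 to 0.0763. Neither did C1s2, which was named earlier. No slide batch could be tested, because all arrays lay on 1 slide. Genes dim on the halofuginone arrays have only a lower bound on their drop, and genes dim on all arrays have no change that could be read.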

Other observations

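Acute phase genes that did not pass went different ways in K6, and those named here were picked after their values were seen. Saa2, a serum amyloid A gene, was -0.23 in halofuginone K6, against -6.39 in control K6, which was not well above background, at least 16.3-fold higher. In K5 neither array read it. Hamp, which encodes the iron hormone hepcidin, was -1.51 in halofuginone K6, against -4.70 in control K6, which was not well above background, at least 6.68-fold higher. Serpina3n was likewise read on the K6 halofuginone array alone. Other genes were lower in K6: Lcn2, a siderophore binding protein, read -3.73 in halofuginone K6 against -0.55 in control K6, with -1.43 in halofuginone K5 against -1.49 in control K5. C-reactive protein (Crp) was read on the K6 control array alone, at -2.72, so that halofuginone K6 was at least 4.89-fold lower. Pzp, an alpha-2-macroglobulin relative, was read on the control arrays only and was at least 6.91-fold lower in halofuginone K5 and at least 41.1-fold lower in halofuginone K6. Saa1 was -2.81 and -2.76 in halofuginone K5 and K6, against -2.89 and -2.80 in the controls (change 0.06, SE 0.26, adjusted p 0.887). The orosomucoid genes Orm1, Orm2 and Orm3 were read on no array.

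The albumin gene cluster on chromosome 5 has 2 further genes among those lists, Afm and Gc, the vitamin D binding protein. Both passed as lower with limma, Afm with a change of -4.21 (SE 0.31, adjusted p 0.0359) and Gc with -2.72 (SE 0.29, adjusted p 0.0375). Gc read 0.89 in halofuginone K5 and 0.31 in halofuginone K6, against 3.35 in control K5 and 3.29 in control K6. Of the 4 genes of the cluster, Afp was the one that did not pass, although the pass of Alb rests in part on K5 values that could not be read.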
